A study of Homo sapiens with 12 samples.

Results

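The comparison described here set 3 libraries of HEK293T cells that had received si-snaR-A#2, an siRNA directed at the noncoding RNA snaR-A, against 3 libraries that had received a scramble siRNA. HEK293T is a human embryonic kidney line that carries the SV40 large T antigen. The members of the comparison were all Ensembl genes that passed an expression filter, which left 21999 of the 63541 gene IDs in the table. The 6 libraries were part of a set of 12, in which si-snaR-A#1 and also si-snaR-A#3, 2 further siRNAs against the same RNA, had 3 libraries each. Every culture was transfected with 12.5 nM siRNA and collected after 48 h, so the cells of all groups had been through transfection and none was left untransfected. RNA depleted of rRNA and selected for poly(A) tails was sequenced. The labels number the libraries of a group from 1 to 3. The study's methods call the replicates of its genomic experiments biological and place their processing on a single day, so p-values measure the spread between replicates of that day.

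snaR-A belongs to a family of short, structured RNAs that RNA polymerase III transcribes from clustered gene copies on chromosome 19 and that is found mainly in testis and in cancer and immortalised lines. The study examined whether it contacts the splicing machinery, in particular the U2 snRNP protein SF3B2, and whether its loss alters the processing of particular mRNAs. An siRNA duplex enters Argonaute proteins, which keep 1 of its strands. Besides cleaving an RNA that pairs along the whole strand, a loaded strand can lower other mRNAs in the way a microRNA does, through pairing of bases 2 to 8 from its 5′ end, the seed, with a 3′ UTR. Either strand of a duplex can be loaded, also with a scramble siRNA.

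The target is shown first because the matched stretch also sets the seed words of the siRNA. In the RefSeq copy SNAR-A1 (GRCh38, chr19:47918429-47918550, plus strand, 122 bases), the strand listed for si-snaR-A#2 has the same 19 bases as positions 89 to 107 (chr19:47918517-47918535), which are in capitals, so its complement is the strand that pairs with snaR-A. The same stretch was found in all 14 RefSeq snaR-A genes.

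SNAR-A1: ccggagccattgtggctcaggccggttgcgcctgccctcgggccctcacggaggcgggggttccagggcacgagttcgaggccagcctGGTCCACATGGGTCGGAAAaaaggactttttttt

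A 3′ UTR word that pairs with bases 2 to 8 of the strand listed for si-snaR-A#2 reads TGTGGAC, and the word that pairs with bases 2 to 8 of its complement reads GTCGGAA. The stretch matched by si-snaR-A#3, positions 88 to 107, ends at the same base, and the complement of that siRNA therefore shares the word GTCGGAA. Windows of 25 bases around GTCGGAA (capitals) are given below for 7 genes that fell by about 2-fold or more and 1 gene that rose, all chosen after their values were seen. They lie in the 3′ UTRs of GENCODE 44 transcripts on GRCh38, and the values of these genes follow further on.

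SCAMP5, chr15:75020536-75020560, plus strand: tcctcacccaGTCGGAActccctac
MINPP1, chr10:87553032-87553056, plus strand: actgaagcaaGTCGGAAagtacaat
HOXA7, chr7:27154861-27154885, minus strand: gcaccggacaGTCGGAAaagcgtct
TUBB2B, chr6:3224488-3224512, minus strand: aaacgtttgtGTCGGAAtggtgtcc
RBM24, chr6:17292617-17292641, plus strand: cttttttcaaGTCGGAAggtcctgt
ELOVL5, chr6:53267822-53267846, minus strand: attttaaagtGTCGGAAtttagcct
TBC1D13, chr9:128808980-128809004, plus strand: tgagcccaggGTCGGAAcccattgc
ZBTB16, chr11:114256383-114256407, plus strand: gggccgctgaGTCGGAAtccgtggc

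Library totals were between 123.03 and 180.1 M estimated counts for scramble and between 132.2 and 155.2 M for si-snaR-A#2. Mitochondrial genes took 4.78 to 6.05% and 5.00 to 5.82% of them. The table held 0 gene IDs with a SNAR symbol, so the knockdown itself could not be read. Of 6 epithelial markers, 4 had at least 1 CPM (counts per 1e6 counts) in all 6 libraries, and the summed marker level was 49.0 to 52.3 CPM in scramble and 44.4 to 46.5 CPM with si-snaR-A#2. Of 4 kidney lineage markers, 2 passed 1 CPM throughout, with sums of 95.9 to 101 CPM and 104 to 109 CPM, and PAX8 was near 0. All 3 endothelial and all 4 blood markers were under 1 CPM in every library. The summed level of 4 neuronal markers was 407 to 434 CPM in scramble and 666 to 687 CPM with si-snaR-A#2, from higher NEFL and NEFM, both of which this line is known to express. In bulk RNA, a change in the number of cells of a type and a change in RNA per cell cannot be told apart.

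Expression moved widely and by small steps. Changes given without a unit are log2 fold changes of si-snaR-A#2 over scramble, and the threshold for a call was an adjusted p of 0.05. By that rule, 3018 genes were higher with si-snaR-A#2 (13.7% of the genes tested) and 2655 were lower (12.1%). The median called rise was 0.28 on the log2 scale (quartiles 0.20 and 0.40) and the median called fall was -0.39 (quartiles -0.67 and -0.25), with a median standard error of 0.10 over all genes and 0.06 over the 11656 genes with at least 5 CPM. A change of over 2-fold was called for 47 higher and 294 lower genes, and for 17 and 18 of those with at least 5 CPM. The split of calls rested on the scaling, since upper quartile scaling gave 2439 higher and 3584 lower calls, 40.5% higher against 53.2% in the values reported here.

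The largest rises included G3BP2, TPM4 and PLEKHB2. G3BP2 (chr4, a stress granule RNA-binding protein) was at 137, 139.7 and 141 CPM in the scramble libraries and at 448, 444 and 455 CPM with si-snaR-A#2. The groups were far apart, a log2 fold change of 1.69 ± 0.043, adjusted p = 4.1e-10 (± SE, n = 3 each, edgeR quasi-likelihood test with Benjamini-Hochberg adjustment, as throughout). TPM4, a tropomyosin of actin filaments, was at 136, 131 and 146 CPM and then at 399, 383 and 398 CPM, or 1.51 ± 0.05, adjusted p = 2.8e-09 on the log2 scale. PLEKHB2, a membrane protein with a pleckstrin homology domain, was at 53.1, 53.7 and 54.0 CPM and at 146, 145 and 135 CPM (1.40 ± 0.046, adjusted p = 2.8e-09). SLC4A4, a sodium bicarbonate cotransporter, was at 8.86, 9.37 and 8.79 CPM and at 22.6, 22.4 and 22.4 CPM (1.32 ± 0.072, adjusted p = 1.2e-07).

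NOLC1, a nucleolar phosphoprotein of ribosome and snoRNP assembly, was at 173, 171 and 175 CPM in scramble and 408, 384 and 392 CPM with si-snaR-A#2 (1.19 ± 0.042, adjusted p = 3.9e-09). GANAB, the catalytic subunit of glucosidase II in the endoplasmic reticulum, was at 218, 211 and 217 CPM and 454, 483 and 440.1 CPM (1.09 ± 0.044, adjusted p = 1.7e-08). HABP4, an RNA-binding protein, rose by 1.21, the zinc finger genes ZNF267 and ZNF616 by 1.19 and 1.11, the cyclin-dependent kinase CDK14 by 1.16 and the lysine methyltransferase SETD7 by 1.07. Of the 12 largest rises, 12 were also called higher with each of the other siRNAs, against the same scramble libraries, and 1 differed by the test between si-snaR-A#2 and #3. That gene was PLEKHB2, higher with si-snaR-A#2 (log2 difference 0.18, adjusted p = 0.015).

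**Figure D1:**
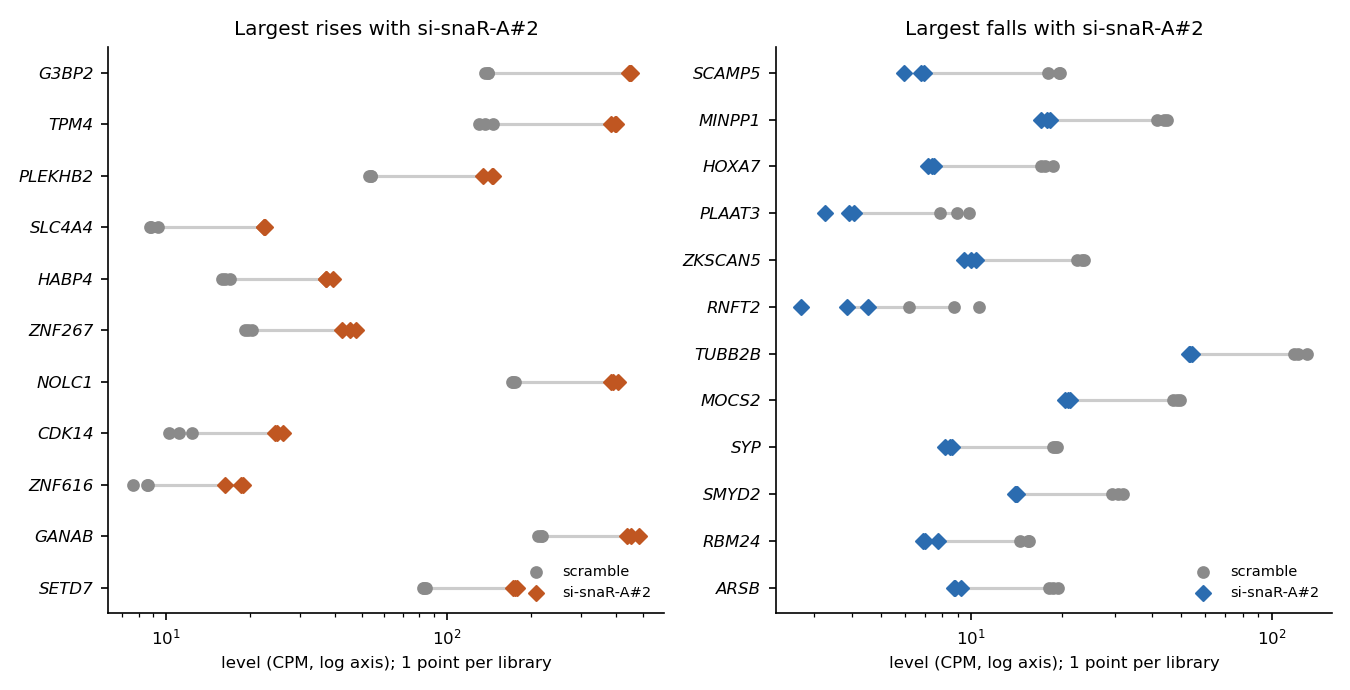
The CPM of each library on a log axis for 11 of the 12 largest rises and the 12 largest falls above the minimum of 5 CPM, with scramble and si-snaR-A#2 libraries in different colours and 1 point per library. In each of these genes the 3 si-snaR-A#2 libraries lie on the same side of the 3 scramble libraries, as the rule for naming them requires, and the points of a group lie close together beside the distance between groups.

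The largest falls were led by SCAMP5, a secretory carrier membrane protein of synaptic vesicles, at 18.1, 19.6 and 19.7 CPM in scramble and 6.82, 6.98 and 5.95 CPM with si-snaR-A#2 (-1.54 ± 0.075, adjusted p = 4.8e-08). MINPP1, an inositol polyphosphate phosphatase, was at 41.5, 43.7 and 44.8 CPM and 17.1, 18.3 and 17.9 CPM (-1.29 ± 0.064, adjusted p = 6.0e-08). TUBB2B, a beta-tubulin of developing neurons, was at 118, 122 and 131 CPM and 54.4, 53.3 and 52.97 CPM (-1.21 ± 0.055, adjusted p = 2.5e-08). SMYD2, a lysine methyltransferase, was at 29.4, 32.0 and 30.8 CPM and 14.2, 14.1 and 14.0 CPM (-1.13 ± 0.049, adjusted p = 2.1e-08). The groups did not overlap in these 4 genes, which the rule for naming them required.

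SMYD2 also set the siRNAs apart. Its log2 fold change against scramble was 0.035, adjusted p = 0.62 in the si-snaR-A#3 libraries, and si-snaR-A#2 was lower than si-snaR-A#3 (log2 difference -1.16, adjusted p = 6.7e-08). MOCS2, a subunit of molybdopterin synthase, fell by 1.20 and differed from si-snaR-A#3 (log2 difference -1.03, adjusted p = 9.7e-08). ZKSCAN5, a zinc finger gene, fell by 1.22 and differed (log2 difference -0.97, adjusted p = 2.2e-07). SYP, the synaptic vesicle protein synaptophysin, fell by 1.17 and ended above the si-snaR-A#3 level (log2 difference 0.34, adjusted p = 0.0015). The other falls were HOXA7 at -1.27, the phospholipase PLAAT3 at -1.24, RNFT2 at -1.21, the RNA-binding protein RBM24 at -1.07 and the lysosomal sulfatase ARSB at -1.07. Of the 12 largest falls, 10 differed by the test between si-snaR-A#2 and #3, 11 were called lower in the si-snaR-A#3 libraries and 8 in those of si-snaR-A#1.

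Genes with GTCGGAA in the 3′ UTR were lower more often than others. Of 14817 protein-coding genes with an annotated 3′ UTR, 19.0% were called higher and 15.2% lower. The word was present in 190 of them (1.28%), and of these 81 were lower (42.6%) and 12 higher, with a median log2 fold change of -0.20 and 141 values below 0. Of the 14627 genes without it, 14.9% were lower and 19.2% higher, with a median of 0.00. In the top CPM quintile, 54.2% of 48 genes with the word and 9.09% of the genes without it were lower, and in the bottom quintile the shares were 7.69% of 13 genes and 7.10%. These shares are descriptions, and the part that pairing of a siRNA strand plays in them was not tested.

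The same genes could be set against the other siRNAs directly. Against si-snaR-A#3, whose complement shares the word, 25.3% of the 190 genes were lower and 15 were higher, while 12.6% of all 14817 genes were lower and 8.22% higher in that comparison. Against si-snaR-A#1, whose complement pairs with another word, 48.9% were lower and 29 were higher. In that comparison 23.7% of all 21999 genes tested were lower and 23.0% higher. Among the 5 falls of about 2-fold or more that hold the word and are among the 12 largest, TUBB2B differed from si-snaR-A#1 (log2 difference -1.23, adjusted p = 4.2e-09), as did MINPP1 (log2 difference -1.45, adjusted p = 4.2e-09). The differences from si-snaR-A#1 were smaller for RBM24 (log2 difference -0.79, adjusted p = 3.5e-06), SCAMP5 (log2 difference -0.45, adjusted p = 2.6e-04) and HOXA7 (log2 difference -0.40, adjusted p = 2.5e-04). All 5 were also below si-snaR-A#3, whose complement shares the word, by log2 differences of -0.52 for TUBB2B, -0.45 for MINPP1, -0.45 for RBM24, -0.35 for SCAMP5 and -0.73 for HOXA7 (adjusted p = 1.4e-05 for HOXA7 to adjusted p = 0.007 for SCAMP5). ELOVL5, an elongase of polyunsaturated fatty acids, was at 222, 233 and 227 CPM in scramble and 109, 114 and 113 CPM with si-snaR-A#2 (-1.02 ± 0.043, adjusted p = 1.9e-08), with a difference of -1.13, adjusted p = 1.8e-09 from si-snaR-A#1 and of 0.04, adjusted p = 0.6 from si-snaR-A#3. TBC1D13, a RAB GTPase activating protein, fell by 1.05 and differed from si-snaR-A#1 (log2 difference -1.25, adjusted p = 3.3e-09). ZBTB16 holds the word and rose by 0.60. TJP1, YAP1, SYNJ2 and VGF, which are named in gene lists below, also hold it and were lower.

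The word of the strand listed for si-snaR-A#2, TGTGGAC, was found in 1736 genes, of which 16.9% were lower and 19.6% higher. For the scramble siRNA, the word TCGGAGA of its listed strand was found in 316 genes (2.13% of those with a 3′ UTR), of which 28.5% were higher with si-snaR-A#2 and 14.6% lower, against 18.8% and 15.2% of genes without it. Of the 12 largest rises, 6 held TCGGAGA and 0 held GTCGGAA. They were G3BP2, TPM4, NOLC1, HABP4, CDK14 and SETD7. Of the 12 largest falls, 5 held GTCGGAA and 0 held TCGGAGA. A rise against scramble and a fall in the scramble libraries cannot be told apart without untransfected cells. The word of the scramble complement, TGTCACG, was found in 449 genes, of which 21.2% were higher and 13.6% lower.

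**Figure D2:**
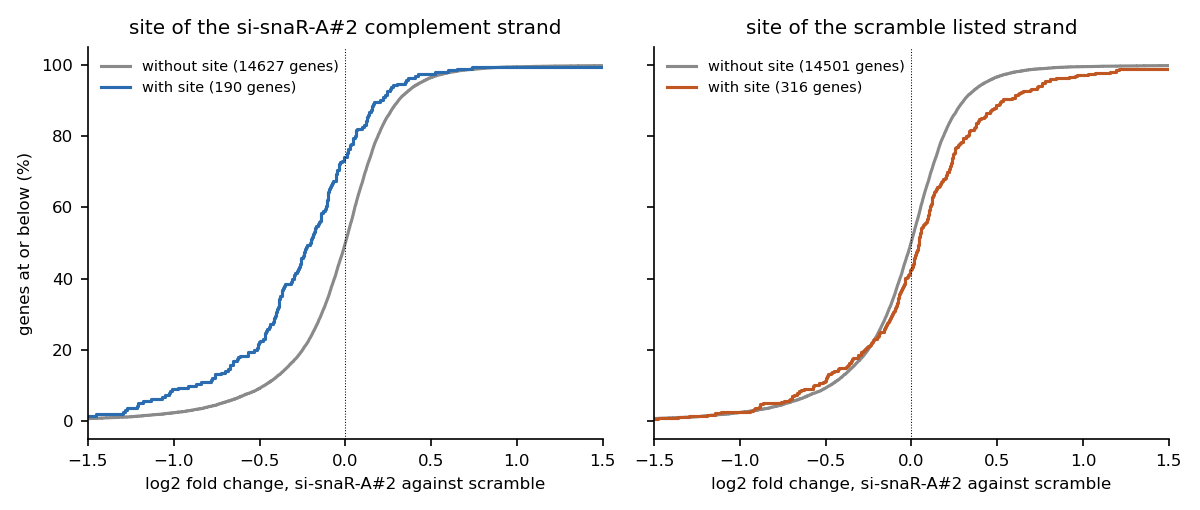
Cumulative share of genes (vertical axis) against the log2 fold change of si-snaR-A#2 over scramble (horizontal axis) for protein-coding genes with a 3′ UTR. At the left, the curve of the 190 genes with GTCGGAA lies left of that of the 14627 genes without it, with medians of -0.20 and 0.00, and at the right the curve of the 316 genes with the scramble word TCGGAGA, median 0.04, lies close to that of the 14501 genes without it.

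Gene groups are given below as counts of called members and medians. No test was run on a group, and its counts are read against the 13.7% higher and 12.1% lower calls of all genes and, since calls become more frequent with level, against the shares called among all genes of the same CPM quintiles as its members (the level-matched shares). The lists were drawn up with earlier results of these data known. In the top CPM quintile, 32.3% of all genes were higher and 9.57% lower. Lists printed without level-matched shares are not read as differing from other genes of their level.

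Genes of the endoplasmic reticulum and early secretory pathway were more often higher than lower. In the unfolded protein response, which raises chaperones and folding enzymes when unfolded proteins build up in the endoplasmic reticulum, 22 of 35 measured members were called higher and 1 lower, with a median of 0.26 and level-matched shares of 28.7% and 11.9%. HSPA5, the major chaperone BiP, was at 860.2, 767 and 896 CPM in scramble and 1395, 1295 and 1359.6 CPM with si-snaR-A#2 (0.68 ± 0.059, adjusted p = 4.6e-06). The groups did not overlap in that gene. CALR, the lectin chaperone calreticulin, was at 374, 376 and 396 CPM and 672, 680.4 and 674 CPM (0.82 ± 0.046, adjusted p = 1.4e-07). The disulfide oxidase ERO1A rose by 0.69, the secreted factor MANF by 0.63, the transmembrane transcription factor CREB3L2 by 0.57, the chaperone HSP90B1 by 0.47, the disulfide isomerase P4HB by 0.49 and the transcription factor XBP1 by 0.31. EDEM1, which takes misfolded glycoproteins to degradation, fell by 0.61.

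The coats that carry cargo between endoplasmic reticulum and Golgi moved the same way, with 24 of 39 COPI and COPII genes higher and 1 lower, a median of 0.19 and level-matched shares of 30.3% and 9.78%. SEC13 rose by 0.52, the cargo adaptor SEC24D by 0.51, the cargo receptor TMED9 by 0.40 and the coatomer subunit COPE by 0.35, and the GTPase ARF3 fell by 0.53. Against si-snaR-A#3, 7 coat genes were lower and 1 higher, and 5 unfolded protein response genes were higher and 6 lower, where 6.52% of all genes were higher and 9.03% lower. Against si-snaR-A#1, 25 coat genes and 23 unfolded protein response genes were higher and 1 and 7 were lower, where 23.0% of all genes were higher and 23.7% lower.

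Cholesterol synthesis and uptake had 17 of 31 members higher (11 without si-snaR-A#2 replicate 2) and 2 lower, with a median of 0.16 and level-matched shares of 25.2% and 12.8%. INSIG1, a sterol sensor that retains SCAP in the endoplasmic reticulum, was at 490.4, 502 and 533 CPM in scramble and 1033, 1115 and 1028 CPM with si-snaR-A#2 (1.06 ± 0.065, adjusted p = 2.5e-07). The enzyme FDPS rose by 0.51, IDI1 by 0.45 and the synthase HMGCS1 by 0.37. IDI1 was also above the si-snaR-A#3 level (log2 difference 0.68, adjusted p = 3.8e-05). The sterol exporter ABCG1 was lower at -0.78 and the sterol reductase TM7SF2 at -0.49. Of 30 fatty acid and triglyceride genes, 9 were higher and 7 lower, among them the acyl-CoA ligase ACSL4 at 0.83, the synthase FASN at 0.37 and, of the falls, AGPAT3 at -0.40 beside ELOVL5.

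Lysosome and autophagy genes, a process the study followed, had 27 of 64 members higher and 6 lower, with a median of 0.13 and level-matched shares of 26.8% and 12.6%. At the protein level, the study found no change in p62 or in the conversion of LC3 when snaR-A was depleted. ATG14, a subunit of the phosphatidylinositol kinase complex that starts autophagosomes, was at 22.8, 22.8 and 21.0 CPM in scramble and 36.8, 40.2 and 38.9 CPM with si-snaR-A#2 (0.80 ± 0.045, adjusted p = 1.4e-07). Its partner BECN1 rose by 0.46, the lipid transfer protein ATG2A by 0.50, the hydrolase GLA by 0.65, and the proton pump subunit ATP6V0D1 by 0.56. The protease CTSL was lower at -0.40, the autophagy conjugation gene ATG5 at -0.20 and TFEB, a transcription factor of lysosomal genes, at -0.30. Compared directly, 17 of these genes were higher and 7 lower than with si-snaR-A#3, and 43 were higher and 4 lower than with si-snaR-A#1. Clathrin, adaptor and endocytosis genes had 14 of 38 higher and 2 lower, with AP2A1 at 0.52 and SYNJ2 at -0.40. Most of them lay in the top CPM quintile, where 32.3% of all genes were higher and 9.57% lower.

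**Figure D3:**
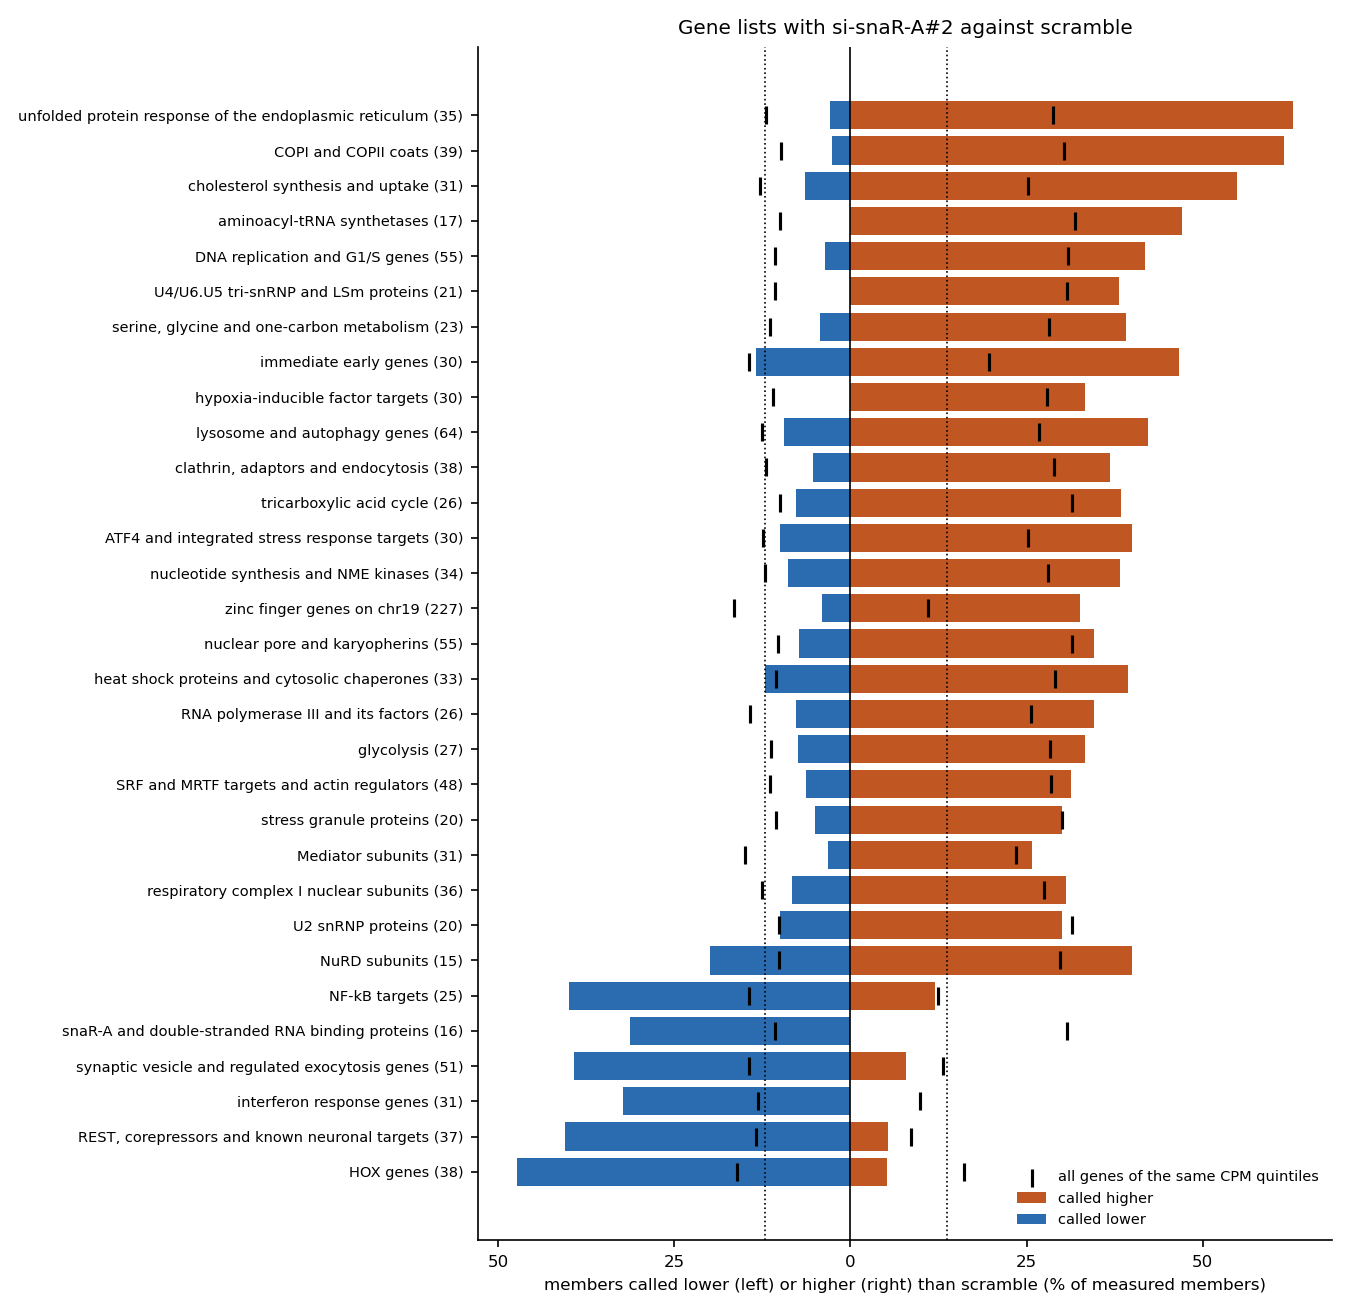
Share of measured members called higher (right) and lower (left) with si-snaR-A#2, in percent, for the 31 gene lists whose 2 shares differ by at least 20 points, chosen after the values were seen, with dotted lines at the shares of all genes tested, 13.7% and 12.1%, and black ticks at the level-matched shares. Lists of the endoplasmic reticulum, its transport coats and sterol synthesis reach to the right, and HOX, REST, synaptic and NF-kB lists reach to the left.

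Amino acid and stress genes moved less uniformly. Of 30 targets of ATF4, the transcription factor of the integrated stress response, 12 were higher and 3 lower (median 0.13), with DDIT4, an mTORC1 inhibitor, at 0.47, the serine pathway enzyme PSAT1 at 0.41 and ALDH1L2 at 0.46, and with VLDLR at -0.37 and CEBPB at -0.28. Measured against si-snaR-A#3, 15 of them were lower and 2 higher. Among 17 aminoacyl-tRNA synthetases, which charge tRNAs, 8 were higher and 0 lower, led by KARS1 at 0.54 and HARS1 at 0.49, and against si-snaR-A#3 9 were lower and 1 higher. Serine, glycine and one-carbon metabolism had 9 of 23 genes higher and 1 lower, with SHMT1 at 0.52 and DLD at -0.27. Most synthetase and one-carbon genes lay in the top CPM quintile, where 32.3% of all genes were higher and 9.57% lower.

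Heat shock proteins and cytosolic chaperones had 13 of 33 members higher and 4 lower. HSPD1 and HSPE1, the mitochondrial chaperonin and its cochaperonin, which are transcribed from a shared bidirectional promoter, went opposite ways. HSPD1 was at 1275, 1362 and 1377 CPM in scramble and 2061, 2071 and 2132 CPM with si-snaR-A#2 (0.64 ± 0.055, adjusted p = 3.9e-06), and HSPE1 was at 177, 191 and 189.9 CPM and 133, 130.3 and 138 CPM (-0.48 ± 0.052, adjusted p = 2.8e-05). The HSP90 activator AHSA1 rose by 0.50 and the small heat shock protein HSPB8 fell by 0.83. Against si-snaR-A#3, 11 chaperones were lower and 2 higher. NRF2 targets, of the oxidative stress response, had 3 of 26 higher (ME1 at 0.68) and 5 lower (HMOX1 at -0.61). Of 30 p53 targets, 8 were higher (4 without si-snaR-A#2 replicate 2) and 10 lower (6 without scramble replicate 3), with BTG2 at 0.69 and the DNA repair gene XPC at 0.36, and with TP53INP1 at -0.59 and MDM2 at -0.47. The large T antigen in these cells is known to bind p53.

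Targets of hypoxia-inducible factors, which turn on glycolysis and angiogenic genes at low oxygen, were more often higher than lower against either other siRNA. Against scramble, 10 of 30 were called higher (17 in DESeq2) and 0 lower, a median of 0.16. Against si-snaR-A#3, 20 were higher and 0 lower, and against si-snaR-A#1 26 were higher and 0 lower. Each of the other siRNAs had a median below 0 against scramble, -0.16 for si-snaR-A#3 against -0.46 in the si-snaR-A#1 libraries. SLC2A3, a glucose transporter, was at 90.1, 89.4 and 98.8 CPM in scramble and 151, 166 and 153 CPM with si-snaR-A#2 (0.76 ± 0.065, adjusted p = 4.2e-06). ADM, the vasodilator adrenomedullin, was at 19.0, 18.2 and 18.5 CPM and 28.7, 32.7 and 29.5 CPM (0.70 ± 0.076, adjusted p = 2.6e-05). CA9, a carbonic anhydrase, showed a difference of 1.39, adjusted p = 0.024 from si-snaR-A#3, the collagen crosslinking enzyme LOX 1.04, adjusted p = 8.2e-06, the regulatory kinase PFKFB4 0.80, adjusted p = 2.8e-06, the lipid droplet protein HILPDA 0.71, adjusted p = 5.4e-06 and NDRG1 0.69, adjusted p = 8.2e-06.

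Among 27 glycolysis genes, 9 were higher (6 without si-snaR-A#2 replicate 2, 16 in DESeq2) and 2 lower than scramble (median 0.14), while 14 were higher and 1 lower than with si-snaR-A#3, and 19 were higher and 2 lower than with si-snaR-A#1. The liver-type phosphofructokinase PFKL rose by 0.73, the mutase PGAM1 by 0.54, PFKP by 0.37 and GAPDH by 0.26. The enolase ENO2 fell by 0.26. SLC16A3, the lactate exporter MCT4, was at 0.412, 0.485 and 0.612 CPM in scramble and 0.208, 0.270 and 0.195 CPM with si-snaR-A#2 (-1.16 ± 0.25, adjusted p = 0.0038), and it was the glycolysis gene below si-snaR-A#3 (log2 difference -0.95, adjusted p = 0.021).

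**Figure D4:**
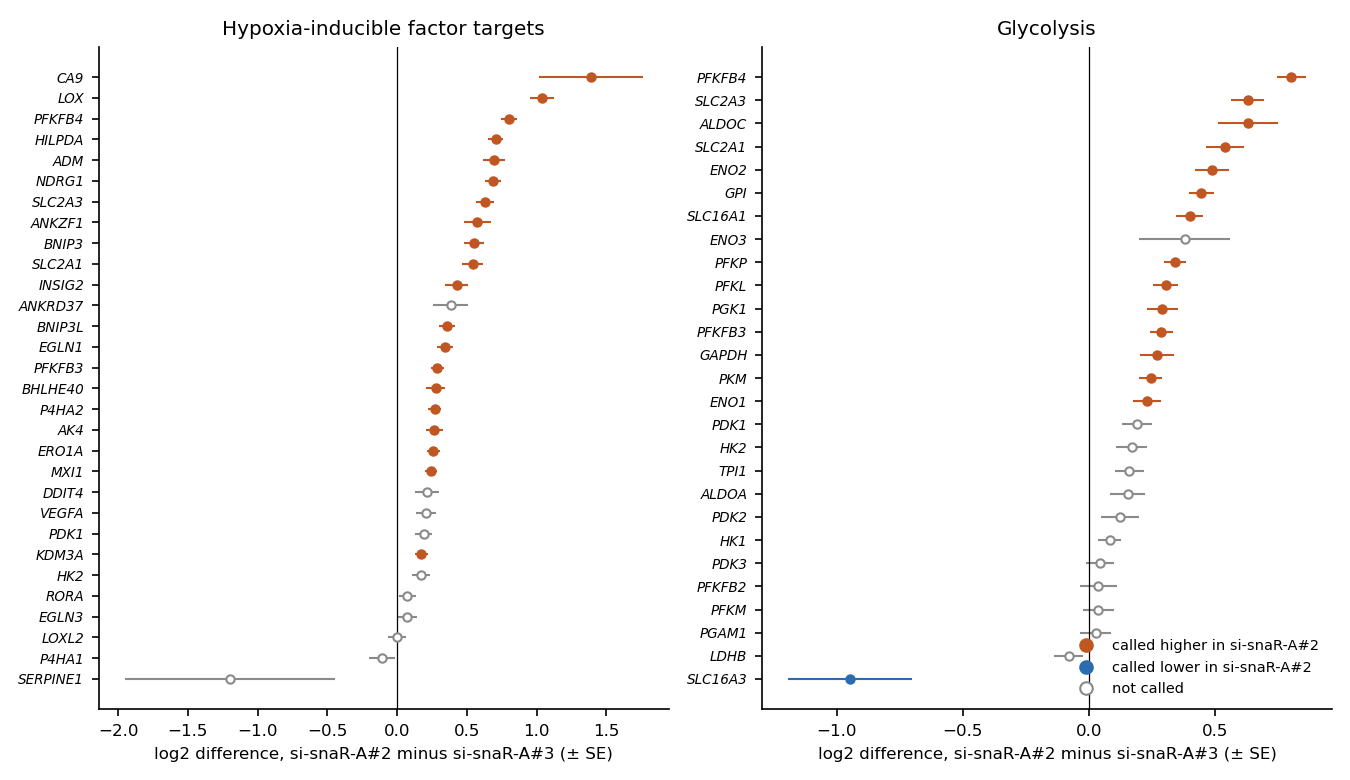
Log2 difference of si-snaR-A#2 over si-snaR-A#3 (horizontal axis, bars ± SE) for each measured hypoxia-inducible factor target and glycolysis gene, with filled points for genes called between the 2 siRNAs. Of 30 hypoxia-inducible factor targets, 20 filled points lie to the right of 0 and 0 to the left, and of 27 glycolysis genes 14 lie to the right and SLC16A3 to the left.

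Mitochondrial energy and nucleotide synthesis genes were more often higher than lower, as were other genes of their level. Of 26 genes of the tricarboxylic acid cycle, 10 were higher and 2 lower, with the dehydrogenase subunit SDHB at 0.58 and the pyruvate dehydrogenase component PDHX at -0.78. Complex I had 11 of 36 nuclear subunits higher (7 without scramble replicate 1) and 3 lower, NDUFA9 at -0.42 among them. Complexes III, IV and V had 10 of 45 higher (5 without si-snaR-A#2 replicate 2) and 3 lower, with cytochrome c, CYCS, at 0.30 and COX7B at -0.52. In nucleotide synthesis, 13 of 34 genes were higher (6 without si-snaR-A#2 replicate 1) and 3 lower, with PRPS1, which makes phosphoribosyl pyrophosphate, at 0.45, the mitochondrial thymidine kinase TK2 at -0.79 and the CTP synthase CTPS1 at -0.41. The level-matched shares of these 4 lists were 27.5 to 31.5% higher and 10.0 to 12.5% lower.

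The study followed proliferation. Genes of DNA replication and of mitosis were more often higher than lower, as were other genes of their level. Replication and G1/S genes had 23 of 55 higher and 2 lower (median 0.11, level-matched shares 30.9% and 10.7%). RRM2, the ribonucleotide reductase subunit that limits deoxynucleotide supply, was at 256, 251 and 269.7 CPM in scramble and 408, 414 and 407 CPM with si-snaR-A#2 (0.66 ± 0.046, adjusted p = 7.6e-07). The licensing factor CDT1 rose by 0.37, the helicase subunits MCM3 and MCM2 by 0.33 and 0.25, and the checkpoint adaptor CLSPN and the origin recognition subunit ORC4 were lower at -0.25 and -0.17. Mitosis and G2/M genes had 18 of 55 higher, or 10 without si-snaR-A#2 replicate 3, and 7 lower (level-matched 31.0% and 10.4%), and against si-snaR-A#3 17 were lower and 2 higher. PLK1, a kinase that drives mitotic entry, was at 109.7, 116 and 116 CPM and 86.9, 88.8 and 89.4 CPM (-0.37 ± 0.04, adjusted p = 2.5e-05). KIF14 and PRC1 of the midzone were lower at -0.36 and -0.27 and the transcription factor FOXM1 at -0.25, while the centromere protein CENPI and the phosphatase CDC25A rose by 0.43 and 0.35. DNA repair had 15 of 57 higher (8 without si-snaR-A#2 replicate 3) and 6 lower, with the uracil glycosylase UNG at 0.34 and the ubiquitin ligase RNF8 at -0.66.

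For the splicing machinery, to which the study links snaR-A, the calls differed little from those of other genes of their level in the U2 snRNP. Among 20 U2 snRNP proteins, which recognise the branch point, 6 were higher and 2 lower, with level-matched shares of 31.5% and 10.2%. SF3B2, the snaR-A partner in the study, was at 290.0, 273 and 286 CPM in scramble and 384, 382 and 385 CPM with si-snaR-A#2 (0.44 ± 0.036, adjusted p = 3.2e-06). The si-snaR-A#2 libraries lay above all scramble libraries. SF3B2 against si-snaR-A#3 gave -0.0051, adjusted p = 0.95 and against si-snaR-A#1 -0.067, adjusted p = 0.15, which do not pass the threshold. PHF5A rose by 0.46, SNRPA1 by 0.31, SF3A3 by 0.31 and SF3A1 by 0.14. DDX46 was lower at -0.28 and U2AF2, which binds the polypyrimidine tract, at -0.19. SF3B1, the core subunit, was at 0.012 ± 0.046, adjusted p = 0.88, with a sign that turned under other scalings, and SF3B4 was at -0.084 ± 0.048, adjusted p = 0.23.

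Of 21 tri-snRNP and LSm proteins, 8 were higher (5 without si-snaR-A#2 replicate 2) and 0 lower, with SART1 at 0.55 and PRPF31 at 0.36. Most of these genes lay in the top CPM quintile, where 32.3% of all genes were higher and 9.57% lower. U1 snRNP proteins had 1 of 9 higher and 1 lower, and the Sm core 0 of 7 higher and 1 lower. SR proteins and speckle kinases had 3 of 24 higher (CLK3 at 0.34) and 5 lower (SRSF12 at -0.32), with 31.0% and 10.6% level-matched. Of 30 hnRNP proteins, 8 were higher (4 without si-snaR-A#2 replicate 3) and 3 lower, with PTBP1 at 0.27 and TARDBP at -0.43.

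Among the 13 transcripts whose splicing the study pursued, 4 were higher and 3 lower as whole genes. The opioid growth factor receptor OGFR was at 26.4, 25.2 and 24.97 CPM in scramble and 45.1, 46.0 and 44.3 CPM with si-snaR-A#2 (0.82 ± 0.041, adjusted p = 6.0e-08), and si-snaR-A#2 exceeded si-snaR-A#3 (log2 difference 0.14, adjusted p = 0.036). MCRIP2, a stress granule component, was at 7.77, 6.37 and 6.95 CPM and 11.01, 10.03 and 10.2 CPM (0.56 ± 0.078, adjusted p = 1.8e-04). MTA1, a subunit of the NuRD chromatin remodelling complex, was at 109, 97.5 and 103 CPM and 127, 128 and 124 CPM (0.29 ± 0.057, adjusted p = 0.0022). The nuclease MUS81 was lower at -0.40, TTC31 at -0.34 and DMKN at -0.25. AUP1, a lipid droplet and ubiquitin pathway protein, was at 0.071 ± 0.043, adjusted p = 0.27, TIMELESS, a replication fork protein, at 0.065 ± 0.036, adjusted p = 0.22 and HIP1R, an endocytic adaptor, at -0.016 ± 0.071, adjusted p = 0.9. The adaptor subunit AP1G2 was at -0.36 ± 0.16, adjusted p = 0.11, the deadenylase subunit PAN2 at -0.063 ± 0.13, adjusted p = 0.77 and TRABD at 0.097 ± 0.061, adjusted p = 0.28, so that no change was called in these 6. NME1, a nucleoside diphosphate kinase that is not on this list, was at -0.031 ± 0.049, adjusted p = 0.7. Gene-level counts do not separate spliced from intron-retaining transcripts.

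Proteins that bind snaR-A or double-stranded RNA were not called higher in any of 16 cases, and 5 were lower, against level-matched shares of 30.8% and 10.7%. SSB, the La protein that holds the 3′ ends of RNA polymerase III transcripts, was at 419, 432 and 425 CPM in scramble and 348, 318 and 359.5 CPM with si-snaR-A#2 (-0.31 ± 0.047, adjusted p = 3.1e-04), below si-snaR-A#3 (log2 difference -0.25, adjusted p = 0.0029) and above si-snaR-A#1 (log2 difference 0.56, adjusted p = 7.5e-07). The helicase DHX9 fell by 0.16. ILF2, a known snaR-A binding protein, was at 0.095 ± 0.044, adjusted p = 0.14. RNA polymerase III and its factors had 9 of 26 higher and 2 lower, with the alternative subunit POLR3G at 0.38, the repressor MAF1 at 0.30 and the initiation factor BRF1 at -0.32. Nonsense-mediated decay factors had 2 of 16 higher and 5 lower, with MAGOHB of the exon junction complex at -0.59.

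Stress granule proteins had 6 of 20 members higher and 1 lower, with FXR1 at 0.36, PABPC4 at 0.33 and TIA1 at -0.21 beside G3BP2 and MCRIP2. Members other than LSM14A and MCRIP2 lay in the top CPM quintile, where 32.3% of all genes were higher and 9.57% lower. G3BP1, the close relative of G3BP2, was at -0.13 ± 0.053, adjusted p = 0.089. In microRNA and deadenylation genes, 8 of 29 were higher and 3 lower, with AGO1 at 0.46 and CNOT2 at -0.18. Ribosome biogenesis had 19 of 55 higher (10 without si-snaR-A#2 replicate 1) and 8 lower, with POLR1B at 0.55 beside NOLC1 and with UTP15 at -0.48. Translation initiation had 14 of 53 higher (8 without scramble replicate 1) and 5 lower, with EIF3F at 0.46, EIF4A1 at 0.40 and the translation repressor EIF4EBP1 at -0.77.

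Of 15 NuRD subunits, 6 were higher and 3 lower, with level-matched shares of 29.8% and 10.1%. The deacetylase HDAC1 was at 124, 120.03 and 120.3 CPM in scramble and 181, 173 and 173 CPM with si-snaR-A#2 (0.53 ± 0.037, adjusted p = 7.7e-07). GATAD2A rose by 0.24, and CDK2AP1, MBD3 and MTA2 were lower at -0.42, -0.23 and -0.19. SWI/SNF had 8 of 26 subunits higher (5 without scramble replicate 2) and 3 lower, with SMARCE1 at 0.35 and the core subunit SMARCB1 at -0.98. SMARCB1 was at 21.1, 21.9 and 20.05 CPM and 11.5, 13.3 and 7.25 CPM. Mediator had 8 of 31 higher, among them MED11 at 0.76, and 1 lower.

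Inflammatory and antiviral genes were more often lower than higher. Interferon response genes had 0 of 31 higher and 10 lower, or 5 without si-snaR-A#2 replicate 2 (median -0.21, level-matched 9.89% and 13.2%). RIGI, a cytosolic sensor of RNA with 5′ triphosphates, was at 1.96, 2.12 and 1.86 CPM in scramble and 1.42, 0.633 and 0.881 CPM with si-snaR-A#2 (-1.02 ± 0.29, adjusted p = 0.02). TLR3, the endosomal sensor of double-stranded RNA, was at 1.70, 1.01 and 1.73 CPM and 0.770, 0.981 and 0.811 CPM (-0.79 ± 0.26, adjusted p = 0.038). The ISG15 protease USP18 was lower at -0.52, the oligoadenylate synthetase OAS3 at -0.39 and the membrane protein IFITM3 at -0.57. Against si-snaR-A#3, 8 were lower and 0 higher, whereas 15 were higher and 2 lower than with si-snaR-A#1.

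NF-kB targets had 10 of 25 lower and 3 higher (median -0.41, level-matched 12.45% higher and 14.4% lower). Without scramble replicate 3, 4 were lower. The adhesion molecule ICAM1 was at 0.498, 0.452 and 0.532 CPM in scramble and 0.181, 0.178 and 0.187 CPM with si-snaR-A#2 (-1.44 ± 0.17, adjusted p = 5.0e-05). The chemokine CXCL8 was at 1.74, 1.13 and 1.60 CPM and 0.911, 0.370 and 0.897 CPM (-1.04 ± 0.29, adjusted p = 0.02). Levels of both were low. The feedback inhibitors TNFAIP3 and NFKBIA were lower at -0.64 and -0.43, and TNIP1 and the manganese superoxide dismutase SOD2 rose by 0.38 and 0.30.

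Genes of neurons were more often lower than higher. Synaptic vesicle and exocytosis genes had 20 of 51 lower and 4 higher, with a median of -0.29 and level-matched shares of 14.4% and 13.2%. Beside SCAMP5 and SYP, the synapsin SYN1 was lower at -1.18 and the neuropeptide precursor VGF at -1.46, while SYN2 and SYT1 rose by 0.33 and 0.21. Levels of SYN1 and VGF were low, with means of 0.457 and 0.464 CPM in scramble and 0.201 and 0.168 CPM with si-snaR-A#2. A list of known targets of REST, the repressor of neuronal genes in other cells, which also holds REST and its corepressors RCOR1 and RCOR2, had 15 of 37 members lower and 2 higher (median -0.46). Of the members called lower, CDK5R2, CHRM4, SYN1, VGF and RUNDC3A had means of 0.32 to 0.48 CPM. In the CPM quintile that holds this range, 11.1% of all genes were lower and 1.80% higher. SYP, STMN3 and MAPK8IP2, also called lower, had means of 13.4 to 19.1 CPM. VWA5B2 was at 2.08, 1.75 and 2.05 CPM and 0.710, 0.619 and 0.733 CPM (-1.51 ± 0.18, adjusted p = 5.3e-05). The 2 higher members were the neurofilament genes. NEFM was at 266, 244 and 265 CPM and 453, 429 and 462 CPM (0.79 ± 0.045, adjusted p = 1.4e-07), and NEFL was at 148, 158 and 165 CPM and 221, 233 and 221 CPM (0.52 ± 0.062, adjusted p = 5.8e-05).

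Potassium channels had 16 of 70 lower and 3 higher, with level-matched shares of 12.2% and 5.76%, among them KCNH2 at -0.94, KCNC1 at -0.79 and, of the rises, KCNE4 at 0.59. Calcium and sodium channels had 15 of 56 lower and 8 higher, with SCN3B at -1.05, CACNG7 at -1.05 and the ryanodine receptor RYR2 at 0.47. Of 16 intermediate filament genes, 6 were higher, including vimentin, VIM, at 0.47 and NES at 0.23, and 3 were lower, including INA at -0.49. GFAP, the filament of astrocytes, was at 2.05, 2.61 and 2.34 CPM in scramble and 0.690, 0.654 and 0.811 CPM with si-snaR-A#2 (-1.70 ± 0.15, adjusted p = 4.5e-06).

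HOX genes, which specify position along the body axis, had 18 of 38 lower and 2 higher, with a median of -0.21 and level-matched shares of 16.1% and 16.1%. HOXA7 was at 17.0, 18.8 and 17.6 CPM in scramble and 7.52, 7.20 and 7.40 CPM with si-snaR-A#2 (-1.27 ± 0.066, adjusted p = 7.5e-08). HOXA10 was lower at -0.66, HOXA9 at -0.49, HOXA2 at -1.08 and HOXC12 at -1.28. Levels of HOXA2 and HOXC12 were low, with means of 1.39 and 1.08 CPM in scramble and 0.657 and 0.445 CPM with si-snaR-A#2. HOXC10 and HOXC8 rose by 0.26 and 0.19. Against si-snaR-A#3, 9 HOX genes were lower and 3 higher, and 1 of the 38 held GTCGGAA. HOX genes overlap each other and antisense genes, so counts can be split between neighbours.

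Signalling pathways gave mixed lists. Wnt pathway genes and targets had 12 of 40 lower (4 without si-snaR-A#2 replicate 3) and 5 higher, with the secreted inhibitor NOTUM at -0.75, APC at -0.37, the ligand WNT7B at -0.52, GSK3B at 0.43 and AXIN1 at 0.41. In the Notch pathway, 6 of 30 were lower and 4 higher, with the presenilin PSEN2 at -1.02, the receptor NOTCH3 at -0.36 and the ligand DLL1 at 0.48. Hedgehog genes had 4 of 16 lower, GLI2 at -0.30 among them, and 2 higher. TGF-beta and BMP genes had 9 of 38 lower, with the inhibitory SMAD6 at -0.63 and SMAD1 at -0.62, and 5 higher, with LTBP1 at 0.43.

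Outputs and feedback regulators of ERK had 7 of 21 lower and 3 higher. The ETS factor ETV5 was at 2.40, 1.95 and 2.78 CPM in scramble and 1.33, 0.896 and 1.303 CPM with si-snaR-A#2 (-1.02 ± 0.19, adjusted p = 0.0015). The phosphatase DUSP6 was lower at -0.74, the transcription factor EGR1 at -0.86 and SPRED3 at -0.82, while CCND1, cyclin D1, rose by 0.43, DUSP5 by 0.40 and MYC by 0.23. Immediate early genes nonetheless had 14 of 30 higher and 4 lower, with a median of 0.14. JUN was at 357, 338 and 356 CPM and 633, 627 and 612 CPM (0.83 ± 0.043, adjusted p = 7.6e-08). The nuclear receptors NR4A3 and NR4A2 rose by 0.51 and 0.44, and ARC fell by 0.55. Insulin, AKT and mTORC1 genes had 9 of 42 higher, with IGF2R at 0.61 and AKT1 at 0.45, and 5 lower, with the kinase subunit PIK3CB at -0.90 and IRS1 at -0.47. Components and targets of the YAP and TEAD pathway had 6 of 36 higher (LATS2 at 0.59, CCN1 at 0.54) and 7 lower (ANKRD1 at -1.38, YAP1 itself at -0.38).

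Cytoskeletal genes differed by list. SRF targets and actin regulators had 15 of 48 higher and 3 lower (level-matched 28.4% and 11.4%). MYH9, the heavy chain of nonmuscle myosin II, went from 153 ± 8.10 to 229 ± 6.52 CPM, mean ± SD from scramble to si-snaR-A#2, at a log2 value of 0.58. ACTB, beta-actin, rose by 0.46, ACTA2 by 0.69 and FLNA by 0.26 beside TPM4, and the calponin CNN1 fell by 1.16. Tubulins and microtubule-associated proteins had 22 of 61 lower and 14 higher, and against si-snaR-A#3 14 lower and 3 higher. TUBB3, the neuronal beta-tubulin, went from 5.62 ± 0.414 to 3.197 ± 0.170 CPM (-0.81). MAPRE1, the plus-end protein EB1, went from 165 ± 7.51 to 98.4 ± 1.35 CPM (-0.75), below si-snaR-A#3 (log2 difference -0.92, adjusted p = 3.3e-07). TUBA1C rose by 0.58 and MAP4 by 0.37. Kinesins and dyneins had 11 of 67 higher, KIF1C at 0.80 among them, and 13 lower (8 without scramble replicate 1), KIF1A at -0.83 among them.

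RAB GTPases, which direct vesicle traffic, had 12 of 58 lower, with RAB26 at -0.83 and RAB37 at -1.23, and 9 higher, with RAB5A of early endosomes at 0.48. Nuclear pore and karyopherin genes had 19 of 55 higher and 4 lower, with KPNA6 at 0.58, and were below si-snaR-A#3 in 13 cases and above in 2. USP deubiquitinases had 11 of 48 higher and 7 lower.

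The study also followed migration. Markers of epithelial to mesenchymal transition had 5 of 22 higher and 5 lower. VIM went from 543 ± 33.9 to 754 ± 12.7 CPM, a log2 fold change of 0.47, and the transcription factors SNAI2, ZEB2 and ZEB1 rose by 0.61, 0.30 and 0.15. The junction genes CLDN1, CDH1, TJP1 and OCLN were lower at -0.65, -0.45, -0.39 and -0.36. SNAI1, a repressor of CDH1, fell by 0.60 and ESRP2, an epithelial splicing regulator, rose by 0.55, so the list did not go in a single direction. The fibroblast marker LUM was called higher and COL1A1 lower, with summed fibroblast markers of 28.9 to 30.9 CPM in scramble and 24.5 to 29.6 CPM with si-snaR-A#2.

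Collagens, laminins and other matrix genes had 32 of 108 higher and 13 lower (4 without si-snaR-A#2 replicate 3), with level-matched shares of 13.4% and 13.3%. COL4A1, a basement membrane collagen, was at 24.1, 34.0 and 28.3 CPM in scramble and 65.7, 49.9 and 50.8 CPM with si-snaR-A#2 (0.95 ± 0.13, adjusted p = 1.6e-04). COL4A2, its partner chain, rose by 0.60, COL5A1 by 0.79, COL6A1 by 0.59 and the fibrillin FBN1 by 0.57. Elastin, ELN, was lower at -1.38, THBS1, thrombospondin 1, at -0.68 and the protease ADAMTS4 at -1.19. Integrins and focal adhesion genes had 10 of 42 higher and 9 lower. The subunits of the fibronectin receptor, ITGA5 and ITGB1, rose by 0.45 and 0.48, and the laminin-binding subunits ITGA6, ITGA7 and ITGA3 were lower at -0.83, -0.83 and -0.44. Guidance genes had 20 of 63 higher and 13 lower (8 without si-snaR-A#2 replicate 3), with the netrin NTN4 at 0.87, SEMA3A at 0.65 and PLXNB1 at -0.88.

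Zinc finger genes on chromosome 19, mostly KRAB repressors in tandem clusters, were called higher more often than genes of their level. Of 227 measured, 74 were higher and 9 lower, with a median of 0.19, where level-matched genes were higher in 10.98% and lower in 16.6%. Zinc finger genes on other chromosomes had 49 of 236 higher and 26 lower, with a median of 0.018, whose sign turned under other settings. ZNF616 was at 8.62, 7.67 and 8.61 CPM in scramble and 18.8, 16.3 and 18.5 CPM with si-snaR-A#2 (1.11 ± 0.067, adjusted p = 2.2e-07). ZNF229 rose by 1.60, ZNF227 by 1.00 and ZNF134 by 0.98, and ZNF428 fell by 0.56. Compared with si-snaR-A#3, 49 chromosome 19 genes were higher and 4 lower, and compared with si-snaR-A#1 96 were higher and 26 lower. The members are close paralogs, so reads may be shared among them.

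Calls followed level and base composition across all genes. From the lowest to the highest CPM quintile, the share called higher went from 0.455% to 32.3%, and the median log2 fold change from -0.24 to 0.07. The share called lower was 3.91% at the bottom, 880 of 4399 genes in the middle quintile and 9.57% at the top. From the lowest to the highest GC quintile, the share higher went from 19.2% to 10.6% and the share lower from 8.70% to 18.5%. Among protein-coding genes of the top CPM quintile, the share higher was 31.6 to 35.4% over the GC quintiles and the share lower 8.43 to 11.4%. Neither share changed steadily with GC in that quintile. By type, 18.7% of 15075 protein-coding genes were higher and 15.1% lower, and 2.01% of 4728 lncRNAs were higher and 5.71% lower. The level-matched shares were 18.3% and 13.3% for protein-coding genes and 2.84% and 9.17% for lncRNAs. Chromosome 4 had the highest share higher, 17.2%, and chromosome 22 the highest share lower, 15.9%. The part that level or base composition plays in the lists was not tested beyond the level-matched shares. Another 16 lists, not described singly, held 0 to 19.0% higher and 0 to 15.5% lower members, with medians between -0.14 and 0.06.

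**Figure D5:**
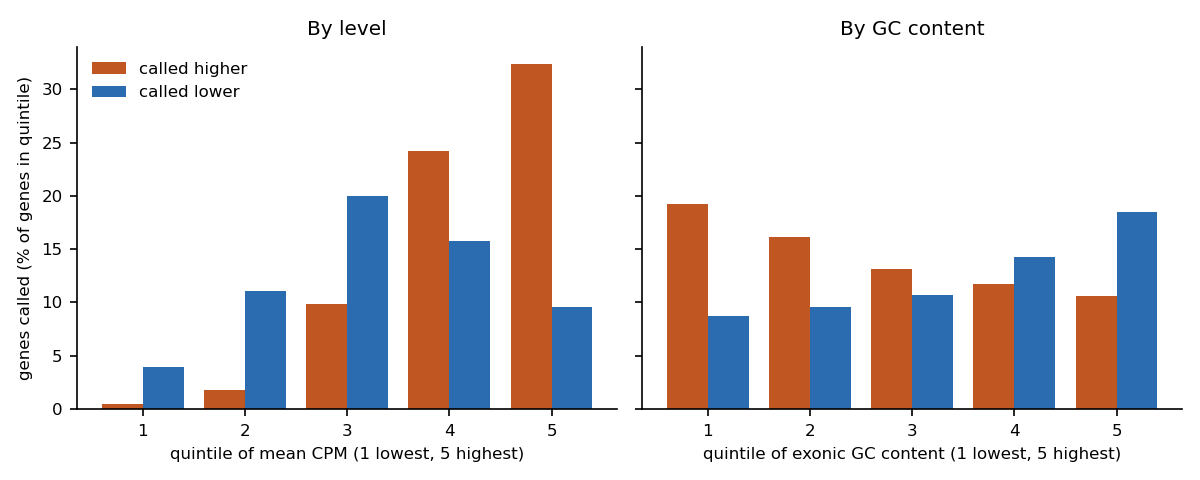
Percent of genes called higher and lower with si-snaR-A#2 in each quintile of mean CPM and of exonic GC content, from lowest to highest. The share higher climbs from 0.455% to 32.3% with CPM and drops from 19.2% to 10.6% with GC, while the share lower climbs from 8.70% to 18.5% with GC.

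Direct contrasts set si-snaR-A#2 apart from the other groups for some genes. Of the genes with at least 1 CPM (14504), 287 were called higher than scramble and than both other siRNAs, and 429 were called lower than all of them. Among genes called against scramble, 507 of the higher genes were also called above si-snaR-A#3 and 236 below it, and 832 of the lower genes were called below si-snaR-A#3 and 128 above it. Over all genes tested, 6.52% were called above si-snaR-A#3 and 9.03% below it. All these contrasts share the same si-snaR-A#2 libraries, so error in those libraries adds to the counts further from scramble. The split is therefore no measure of a stronger effect of si-snaR-A#2. RHOB, a GTPase of endosomes, was at 196, 192 and 209 CPM in scramble and 394, 415 and 388 CPM with si-snaR-A#2 (1.00 ± 0.055, adjusted p = 1.2e-07), above si-snaR-A#3 (log2 difference 0.35, adjusted p = 9.9e-04) and above si-snaR-A#1 (log2 difference 0.77, adjusted p = 2.1e-07). The dynein adaptor BICD2 rose by 0.92, the endoplasmic reticulum prolyl isomerase FKBP14 by 0.91, thrombomodulin, THBD, by 0.91 and ERLIN1, of endoplasmic reticulum lipid domains, by 0.88. THBD exceeded si-snaR-A#1 with 0.27, adjusted p = 0.049, at the threshold.

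Of the largest falls called against all other groups, GFAP, SCAMP5 and the homeobox gene DLX3 had symbols. The log2 difference of GFAP from si-snaR-A#3 was -0.67, smaller than its fall of -1.70 against scramble. The differences of SCAMP5 from both other siRNAs, given above, were also smaller than its fall. GFAP and SCAMP5 thus fell further with si-snaR-A#2, and part of each fall was shared with si-snaR-A#3. DLX3 was at 1.62, 1.82 and 1.76 CPM in scramble and 0.750, 0.647 and 0.562 CPM with si-snaR-A#2 (-1.41 ± 0.13, adjusted p = 8.3e-06), below si-snaR-A#3 (log2 difference -0.92, adjusted p = 5.5e-04). The gene ENSG00000278728, which is named by ID only, was at 45.7, 48.9 and 45.4 CPM and 17.5, 16.6 and 17.3 CPM (-1.45 ± 0.051, adjusted p = 3.9e-09). BTBD7 was at 2.62, 2.68 and 5.95 CPM in scramble and at 0 in each si-snaR-A#2 library, which is at least 173-fold lower when a floor of 3 counts per library is set, with an adjusted p of 0.0094. Its si-snaR-A#3 libraries were at 4.30, 0 and 10.4 CPM, so a value of 0 also occurred outside the group, and the gene is uncertain.

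Exons of 10716 of the genes tested (48.7%) overlap those of another annotated gene, and as nothing says whether reads were assigned by strand, their counts can hold reads of a neighbour. Among the 12 largest rises 7 overlap another gene, G3BP2, TPM4, PLEKHB2, HABP4, CDK14 and ZNF616 among them, and among the 12 largest falls 6 do, which are HOXA7, ZKSCAN5, TUBB2B, MOCS2, SYP and RBM24.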

How the data were processed

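Poly(A)+ RNA of HEK293T cells was sequenced in 12 libraries, 3 for scramble and 3 for each of 3 siRNAs against snaR-A. The authors trimmed reads with Trim Galore, assigned them with Salmon and deposited estimated counts per Ensembl gene without scaling between libraries. The study's methods give the versions of both tools, which are not repeated here, while the transcriptome release, the transcript-to-gene step and the use of strand are not given in the sources used here. Most values are not whole, so rounding to whole counts before the tests, the floor of 3 counts and comparisons with counting error are approximate, and the floor covers counting error only. Every row carried a gene ID, and 0 columns went unused.

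Genes were filtered with filterByExpr on 4 groups in edgeR 4.0.16 (R 4.3.3), which kept over 99.9% of the counts of each library. Normalisation was TMM. A single model with 1 coefficient for each group was fitted to the 12 libraries, and contrasts were tested by quasi-likelihood with Benjamini-Hochberg adjustment over 21999 genes. The standard error was taken as the size of the log2 fold change over the square root of F. CPM use TMM library sizes. Replicates of scramble and si-snaR-A#2 differed by more than counting error (chi-square per degree of freedom 18.0 to 55.1 over 6 pairs). Symbols, coordinates and 3′ UTRs came from GENCODE 44 on GRCh38, which held 58160 of 63541 IDs, and snaR-A genes from RefSeq. The scripts were tested on simulated data.

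Gene lists, members and rules were chosen with earlier results of these data known. The rule named the 12 largest rises and falls with at least 5 CPM, called and with groups that did not overlap, the 2 largest called rises and falls of each list with at least 1 CPM, 5 rises and 5 falls called against all other groups, and 18 genes central to the study. A list was described where its called share in 1 direction was at least 1.5 times that of all genes or where the study names the process. Other members, the genes with GTCGGAA, which come from a search of exact words on the transcript strand, and the level-matched shares were chosen after values were seen. Some genes that the rule names, and the lists that need them, are not reported here. siRNA strands were used only to derive the words, after an exact match to the reference snaR-A genes.

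Alternatives were RLE and upper quartile scaling, a filter at a mean of 1 CPM and no filter, DESeq2 1.42.0, a GC and length correction, only the 6 libraries compared, the replicate number as a block, each replicate left out, a 6-base word and the 3′ UTRs of all transcripts. The same replicate numbers did not pair the libraries.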

Additional observations from a re-analysis of the deposited data

Results flagged for a closer look

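For 10 list genes, si-snaR-A#2 and si-snaR-A#3 were called in opposite directions against scramble and were also called different from each other in edgeR's test of that difference. Both comparisons use the same scramble libraries, so the log2 difference between the siRNAs is given. Lower with si-snaR-A#2 than with si-snaR-A#3 were EIF5A2, an isoform of a translation elongation factor, at -0.68, PSMD9, a proteasome assembly chaperone, at -0.65, the mitotic kinase PLK1 at -0.59, the CTP synthase CTPS1 at -0.57, the proteasome subunit PSMD11 at -0.52 and the GTPase RND2 at -0.43. Higher with si-snaR-A#2 were the ephrin EFNA3 at 0.97, the replication-dependent histone gene H4C14 at 0.94, the F-box gene FBXO36 at 0.55 and RPL22L1, a paralog of a ribosomal protein, at 0.42. H4C14 has near-identical copies among the histone genes, and its mRNA is known to lack a poly(A) tail, which poly(A) selection requires.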

How the results depend on the processing

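Calls for si-snaR-A#2 against scramble were between 5154 and 6191 under 8 alternatives, beside 5673 reported, and between 4251 and 4842 when a replicate was left out. Upper quartile scaling moved the median log2 fold change from -0.03 to -0.08 and the share of higher calls to 40.5%, with 2439 higher and 3584 lower. Changes over 2-fold fell to 83 with a filter at 1 CPM and 220 in DESeq2, from 341, and for si-snaR-A#2 against si-snaR-A#3 to 24 and 53, from 121. Calls in that comparison, 3421 as reported, were between 2215, without si-snaR-A#2 replicate 2, and 3380 when a replicate was left out. Of 4757 values of named genes under the alternatives, 4563 kept direction and side of the threshold, 177 lost the call, 9 gained it and 8 turned sign. Those belonged to 3 genes with no call. HIP1R was at 0.0068 under RLE, 0.0067 in DESeq2 and 0.049 with the GC and length correction, and at -0.044 to 0.042 when a replicate was left out. SF3B1 was at -0.033 under upper quartile scaling and -0.040 with the GC and length correction, and at -0.0090 to 0.045 without a replicate. NME1 was at -0.066 to 0.031 without a replicate. Of 68 lists, 19 had a median whose sign turned under at least 1 alternative, and 541 of 2856 list counts moved by over 1.5 times. Upper quartile scaling gave 20 lower RAB GTPases (12 reported), 22 lower kinesins and dyneins (13), 6 higher ones (11), and 42 lower zinc finger genes outside chromosome 19 (26). The cause was not tested. A 6-base word was found in 1043 genes, of which 25.3% were lower, and GTCGGAA in the 3′ UTRs of all transcripts in 246 genes, of which 39.4% were lower. With the replicate block, 5336 genes were called against scramble, 3096 against si-snaR-A#3 and 9977 against si-snaR-A#1, and deviations of same-numbered scramble and si-snaR-A#2 libraries correlated at -0.043, -0.048 and -0.11 across genes, so the numbers do not pair them. Genes of low level were called less often, and the part of depth in this was not tested.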
